A study of Homo sapiens with 2 samples.

Results

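Heat shock chaperones of the cytosol and the mitochondria were followed in BE(2)-C, an established human neuroblastoma cell line, in a plasma-like medium and a classical one. The genes were taken by symbol from the deposited table of the series: heat shock factors, HSP70, HSP110, HSP90, HSPD1 and HSPE1, the chaperonin CCT, J-domain proteins (DNAJA, DNAJB, DNAJC), small heat shock proteins (HSPB) and BAG proteins. Symbols gave 80 genes, and 6 relatives of the endoplasmic reticulum (HSPA5, HSPA13, DNAJB9, DNAJB11, DNAJC3 and DNAJC10) were left out. Other J-domain genes of that compartment, such as DNAJB12 and DNAJC1, were not among the 6 and stayed in. The remaining 74 are described here, out of 16005 genes in the table. Cells labelled wild type (WT) were kept for 7 days in EMEM/F12 or in HPLM, a medium that holds metabolites and salts near the levels of human plasma, each with 10% serum (FBS) and 1% P/S. GEO gives a single entry for each medium, while the table has 3 library columns for each, numbered 1 to 3. No label ties the columns to separate cultures, and a p-value here therefore reflects library-to-library spread alone, which may be technical. By its title the study concerns uptake of extracellular vesicles, and the media comparison shows expression beside it.

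Chaperones bind unfolded stretches of other proteins and let them go in cycles of ATP binding and hydrolysis. J-domain proteins bring clients to HSP70 and speed up its ATP hydrolysis, and HSP110 and BAG proteins release the nucleotide afterwards. HSP90 acts later, on kinases and steroid receptors among others, while CCT folds actin and tubulin inside a ring chamber. In mitochondria the HSP70 protein HSPA9 pulls imported chains inwards and the HSPD1 and HSPE1 proteins form a folding chamber. The transcription factor HSF1 drives the inducible members under heat and other protein-damaging stress, by binding repeated GAA units in their promoters.

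Levels below are normalised reads, which are read counts divided by 1 factor per library, and changes are log2 ratios of the means over 3 libraries, HPLM over EMEM/F12, ± SE. The verbs rose and fell are kept for genes whose DESeq2 adjusted p, as the authors deposited it, was under 0.05. Read depth ran from 17504237 to 21676080 per library. All 15 listed adrenergic neuroblastoma markers were in the table, with a summed level of 273704 to 319977 in EMEM/F12 and 240958 to 250817 in HPLM. Of these 10 fell and 4 rose, and their part in the results was not tested. EMEM/F12 library 3 stood apart from libraries 1 and 2. All 12 listed fibroblast and mesenchymal markers were in the table with none at 0 in any library, and they summed to 48739, 51186 and 107120 in EMEM/F12 libraries 1 to 3 and to 86905 to 95521 in HPLM. Of the Schwann and glial markers 4 of 9 were in the table, of the endothelial ones 2 of 8 and of the blood ones 1 of 8, with summed levels of at most 315, 108 and 74.4.

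More of the heat shock chaperone genes fell than rose in HPLM. Of the 73 with a p-value 53 were called, against 55.6% of all genes: 35 fell (47.9%) and 18 rose (24.7%). Over all genes the authors' deposited table called 28.8% lower and 26.8% higher. Without regard to level, the share of members that rose was thus near the background and the share that fell was above it. Abundant genes were called more often, and among the 36 members with a mean of at least 1000 normalised reads 20 fell (55.6%) and 10 rose (27.8%), against 40.5% and 36.5% of all genes at that level. At that level the share that rose was below that of all genes, a difference that was not tested. The median log2 fold change in the authors' deposited table was -0.15 over the members and 0.01 over all genes. All 3 HPLM libraries lay below all 3 EMEM/F12 libraries for 38 members, or 51.4% (35.0% over all genes), and above them for 18, or 24.3% (33.6% over all genes). By at least 2-fold 4 of the 73 fell (HSF4, HSPA12B, DNAJB8 and DNAJC22), a share near the 6.73% of all genes. None rose by as much, against 5.39% of all genes. In bulk RNA such as this, fewer cells of a type and less RNA per cell cannot be told apart.

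Counts differed from role to role. J-domain genes split, 13 of 35 rising (37.1%) and 9 falling (25.7%), against 26.8% and 28.8% of all genes. Their median log2 fold change in the authors' deposited table was 0.02, near the 0.01 of all genes. Among the other members 26 of 38 fell (68.4%) and 5 rose (13.2%), with a median of -0.33. The same shares of all genes apply to the counts of each role and list below. The members summed to 1.24%, 1.25% and 1.29% of the normalised gene reads in EMEM/F12 and to 1.07%, 1.07% and 1.06% in HPLM, so the groups did not overlap. The 6 most abundant members, HSP90AB1, HSPA8, HSPA9, HSP90AA1, HSPD1 and CCT3, held 56.9% of the members' reads in EMEM/F12 and 50.8% in HPLM, and 5 of them fell. HSPA9 was the exception. The plot of changes by role shows the HSP110, HSP90 and CCT genes wholly on the lower side.

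**Figure D1:**
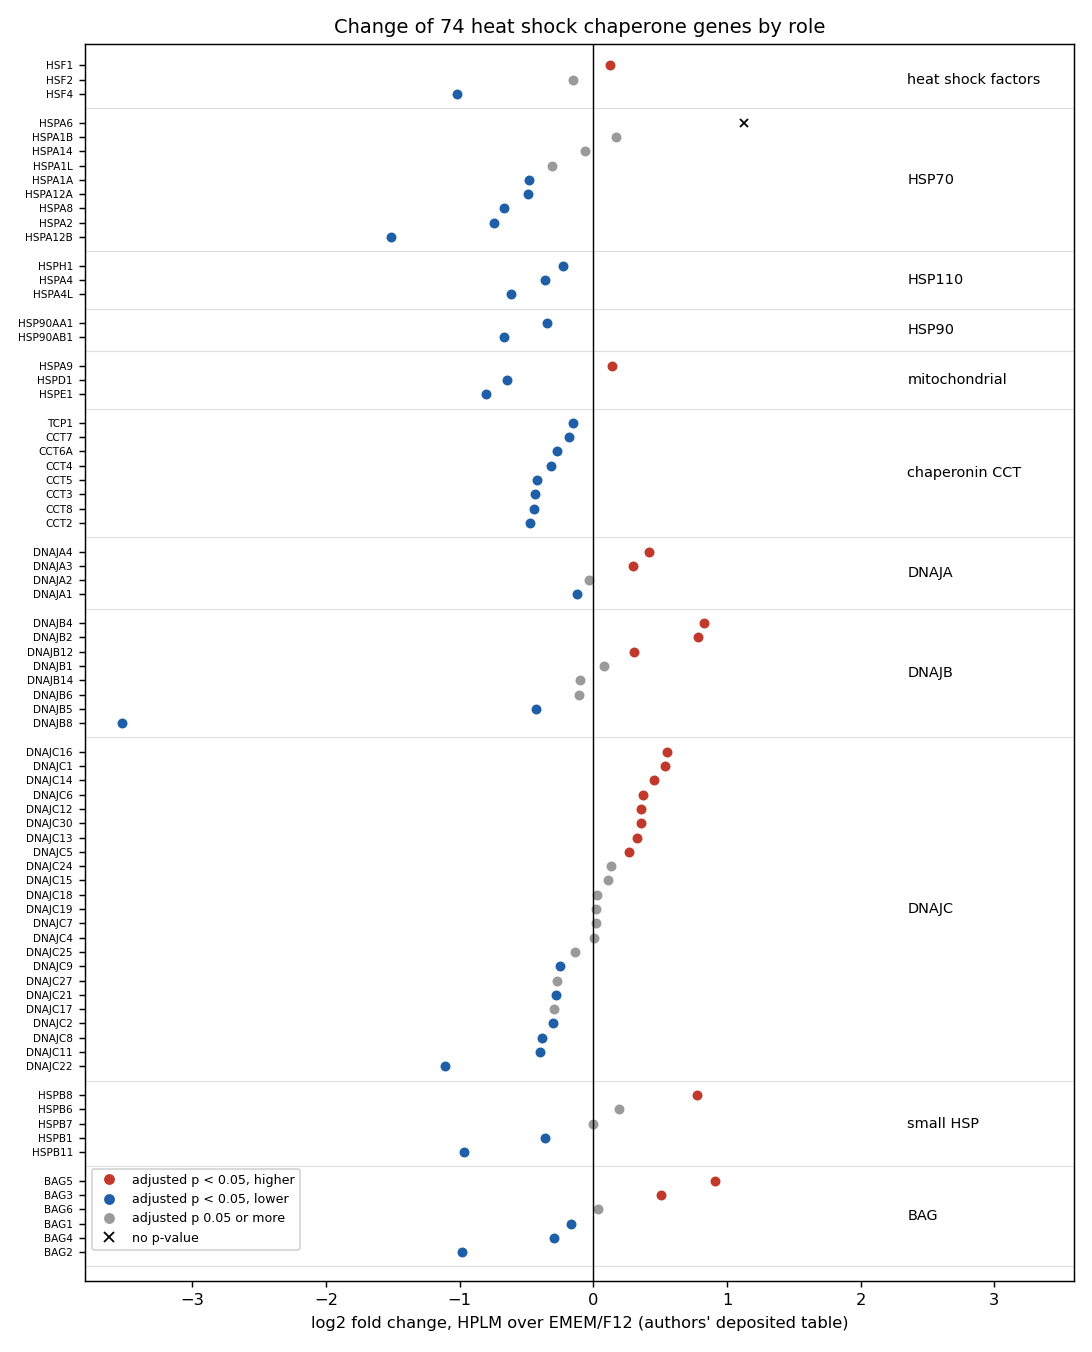
Log2 fold change of each of the 74 genes (x axis, HPLM over EMEM/F12, from the authors' deposited table), grouped by role, 1 point per gene. Red and blue points have an adjusted p under 0.05, grey points do not, and the cross marks HSPA6, which has no p-value. All 8 CCT genes are blue, while 8 of the 23 DNAJC genes are red.

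Promoters were searched for the heat shock element, the site that HSF1 binds. RefSeq (GRCh38.p14) gave upstream sequence for 65 of the 74 members. Each window held the 250 bases before an annotated start site, and 3 alternating units spaced by 2 bases, TTCNNGAANNTTC, were sought on both strands (the other strand reads GAANNTTCNNGAA). Matches stood in 6 of the 65 members (9.23%), against 49 of 10967 genes of the table with a RefSeq window (0.447%) and 0.441% of all 35116 windows. The 6 members were HSPA6, HSPA8, HSP90AA1, HSP90AB1, HSPD1 and DNAJB6. Of these, 4 fell in HPLM, DNAJB6 did not pass (-0.10 ± 0.04) and HSPA6 had no p-value. A match is only a string of letters, and occupancy by HSF1 was not measured. The matches are shown in capitals, each read 5′ to 3′ along the gene's own strand:
HSPA6, chr1:161524458-161524486, plus strand: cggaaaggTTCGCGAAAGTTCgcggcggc
HSPA8, chr11:123062171-123062199, minus strand: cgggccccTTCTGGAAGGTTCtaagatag
HSPA8, chr11:123062346-123062374, minus strand: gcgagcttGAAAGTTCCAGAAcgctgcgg
HSP90AA1, chr14:102087112-102087140, minus strand: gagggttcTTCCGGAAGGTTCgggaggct
HSP90AB1, chr6:44247770-44247798, plus strand: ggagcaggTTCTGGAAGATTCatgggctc
HSP90AB1, chr6:44247823-44247851, plus strand: tgagattgTTCTGGAAGCTTCtggattct
HSPD1, chr2:197500062-197500090, minus strand: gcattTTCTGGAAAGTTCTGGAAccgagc
DNAJB6, chr7:157336865-157336893, plus strand: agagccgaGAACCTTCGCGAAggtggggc
The HSPD1 match spans 18 bases because a match on each strand overlaps there. The stretches printed for HSPA8, HSP90AA1 and HSPD1 overlap a UTR annotated by GENCODE. The HSPD1 match lies upstream of one RefSeq start and downstream of the start at 197500274. HSPA8 and HSP90AB1 each hold a pair of separate matches, and the nearest match to its start site, in HSPA8, begins 55 bases upstream. The shorter pair of units, GAANNTTC or TTCNNGAA, stood in 21 of the 65 members, or in 23.3% of their 90 windows against 11.6% of all windows. Of those 21 members, which include the 6 above, 11 fell and 3 rose. Among the 44 members with a window and no such match 19 fell and 13 rose, and over all genes 28.8% fell and 26.8% rose. A window without a match does not show that a gene lacks an element. BAG3, an HSF1 target, is among the 44, and so is HSPE1, whose window begins at chr2:197500129, beyond the HSPD1 match.

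Among the heat shock factors, which bind these elements, HSF4 fell and HSF1 rose by a small amount. HSF1 (chromosome 8, 144291591 to 144314722), the main stress-activated factor, was at 2134, 2224 and 1983 normalised reads in EMEM/F12 and at 2317, 2344 and 2256 in HPLM (log2 ratio 0.13 ± 0.05, adjusted p = 0.047 in the authors' deposited table). The groups did not overlap, but the call was lost in each of 5 fits that left out 1 library, including that lacking EMEM/F12 library 3 (0.08, adjusted p = 0.14 by DESeq2), and with spike-in scaling (0.06). HSF2, a relative active in development, was at 334 ± 23.5 and 301 ± 5.96 normalised reads (SD, n = 3 libraries) and did not pass. HSF4, known for its role in the lens, fell from 328, 256 and 199 normalised reads in EMEM/F12 to 129, 144 and 112 in HPLM (log2 ratio -1.02 ± 0.23, adjusted p = 4.24e-08 in the authors' deposited table). The lowest EMEM/F12 value, in library 3, was still above the highest HPLM value.

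Of the 9 HSP70 genes outside mitochondria, 5 fell and none rose, against 28.8% and 26.8% of all genes. HSPA8, the constitutive HSP70 (HSC70), which also uncoats clathrin vesicles, lies on chromosome 11, 123057489 to 123063230. It held 37704, 37775 and 36362 normalised reads in EMEM/F12 and 23585, 23489 and 23304 in HPLM (log2 ratio -0.67 ± 0.02, adjusted p = 9.07e-86 in the authors' deposited table). The 3 HPLM libraries lay within a narrow band well below the EMEM/F12 libraries. HSPA2, an HSP70 known from spermatogenesis, fell from 391 ± 3.25 to 233 ± 6.57 normalised reads (-0.74 ± 0.02). More distant relatives, HSPA12A (-0.49 ± 0.11) and HSPA12B (-1.51 ± 0.16), fell too, HSPA12B from 88 reads over the EMEM/F12 libraries to 36 over the HPLM libraries. The HSPA12A call was lost without HPLM library 3 (-0.42, adjusted p = 0.086 by DESeq2). HSPA14, which acts at the ribosome (-0.06 ± 0.09), and HSPA1L (-0.32 ± 0.33) did not pass.

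The stress-inducible HSP70 genes differed between libraries of the same medium. HSPA6 (chromosome 1, 161524540 to 161526910), a strictly inducible HSP70 that is nearly silent in unstressed cells, stood at 8.25, 18.6 and 443 normalised reads in EMEM/F12 libraries 1 to 3. In HPLM it stood at 477, 468 and 78.7. EMEM/F12 library 3 was at 33.0 times the mean of EMEM/F12 libraries 1 and 2 and near HPLM libraries 1 and 2, while HPLM library 3 was at 0.166 times the mean of those 2. No p-value is given for HSPA6 in the authors' deposited table, the only gene for which this is so, and the log2 ratio had an error larger than itself (1.12 ± 1.43). Without EMEM/F12 library 3 the log2 fold change was 4.67 with an adjusted p of 1.79e-05 (DESeq2). That fit leaves out the EMEM/F12 library nearest to HPLM and keeps HPLM library 3, and no other alternative fit called HSPA6. Of its transcript, 45.5% of 50-base windows also occur in its pseudogene HSPA7, so the assignment of its reads is uncertain. Because HSPA6 varied most of the members within a medium, its upstream sequence is shown, from chr1:161524290-161524539 on the plus strand, with the 3-unit match in capitals:
HSPA6: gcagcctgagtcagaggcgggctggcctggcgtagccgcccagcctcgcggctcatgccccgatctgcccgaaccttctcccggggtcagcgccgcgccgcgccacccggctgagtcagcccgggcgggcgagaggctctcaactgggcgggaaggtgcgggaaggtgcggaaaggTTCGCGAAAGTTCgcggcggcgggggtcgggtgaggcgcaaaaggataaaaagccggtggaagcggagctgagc

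HSPA1A and HSPA1B, neighbouring genes on chromosome 6 that encode the main inducible HSP70, did not follow each other. HSPA1A (31815464 to 31817946) fell from 515, 511 and 569 normalised reads to 388, 389 and 369 (log2 ratio -0.48 ± 0.06, adjusted p = 3.70e-06 in the authors' deposited table). HSPA1B (31827735 to 31830255) was at 1299, 1308 and 2161 in EMEM/F12 and at 1976, 1829.6 and 1560.1 in HPLM, and did not pass (0.17 ± 0.28, adjusted p = 0.61). Its EMEM/F12 library 3 was the highest of all 6, and without that library HSPA1B was called higher in HPLM (0.45, adjusted p = 6.92e-04 by DESeq2). No other alternative fit called HSPA1B. The copies share 72.6% of the 50-base windows of the HSPA1A transcript, so single values are uncertain. Their sum was 1814, 1819 and 2730.5 in EMEM/F12 and 2363, 2219 and 1929 in HPLM, with overlapping groups. HSPA1B exceeded HSPA1A by 2.52 and 2.56 times in EMEM/F12 libraries 1 and 2, by 3.80 times in library 3 and by 4.23 to 5.10 times in HPLM. Upstream of their RefSeq start sites, 31815543 for HSPA1A and 31827738 for HSPA1B, 235 of 250 bases are identical. Both sequences are shortened where an annotated UTR begins. They show in capitals the single shorter match, 106 bases upstream of that RefSeq start in HSPA1A and 105 in HSPA1B:
HSPA1A, chr6:31815293-31815463, plus strand: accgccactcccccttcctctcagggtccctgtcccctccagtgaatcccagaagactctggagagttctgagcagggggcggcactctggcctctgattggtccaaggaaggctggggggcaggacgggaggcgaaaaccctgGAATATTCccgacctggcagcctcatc
HSPA1B, chr6:31827488-31827734, plus strand: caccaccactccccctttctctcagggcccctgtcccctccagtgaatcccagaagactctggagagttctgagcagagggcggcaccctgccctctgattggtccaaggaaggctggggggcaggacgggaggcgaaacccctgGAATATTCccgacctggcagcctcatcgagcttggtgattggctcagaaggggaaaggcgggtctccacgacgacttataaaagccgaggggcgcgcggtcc

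Other members were also high in EMEM/F12 library 3. DNAJB1, the inducible J-domain partner of HSP70, was at 1625, 1638 and 1965 normalised reads in EMEM/F12 and at 1957, 1937 and 1643 in HPLM (0.08 ± 0.12), so the same 3 libraries were high as for HSPA6. HSPB6, a small heat shock protein of muscle, was at 75.2, 121 and 193 against 149, 158 and 137 (0.19 ± 0.39). It was called higher in HPLM only in the fit without EMEM/F12 library 3 (0.60, adjusted p = 0.0052 by DESeq2). Of its 50-base windows 39.8% occur in 1 other annotated gene. Within EMEM/F12 the highest library was at least 1.3 times the lowest for 13 of the 74 members, against 25.8% of all genes. Within HPLM this held for 6 members, against 18.5% of all genes. Of the 13, 12 were among the 38 members with a mean under 1000 normalised reads, as were all 6 in HPLM. The shares of all genes are not matched for level, so they cannot tell whether members varied less than other genes. Not all of the 13 were highest in library 3, HSF4 being highest in library 1. The summed fibroblast and mesenchymal markers were at 107120 in EMEM/F12 library 3 against 48739 and 51186, and COL1A1 alone made up 53750 of the 107120. Of the 12 markers 9 were higher in library 3 than in libraries 1 and 2, while PDGFRB (6625, 6704 and 6124), THY1 (8115, 7901 and 7532) and LUM (159.8, 153 and 153) were not. In HPLM the sum was likewise lowest in library 3, at 86905 against 92218 and 95521, as were HSPA6, HSPA1B, DNAJB1 and HSPB6. The part of these markers in the result was not tested.

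**Figure D2:**
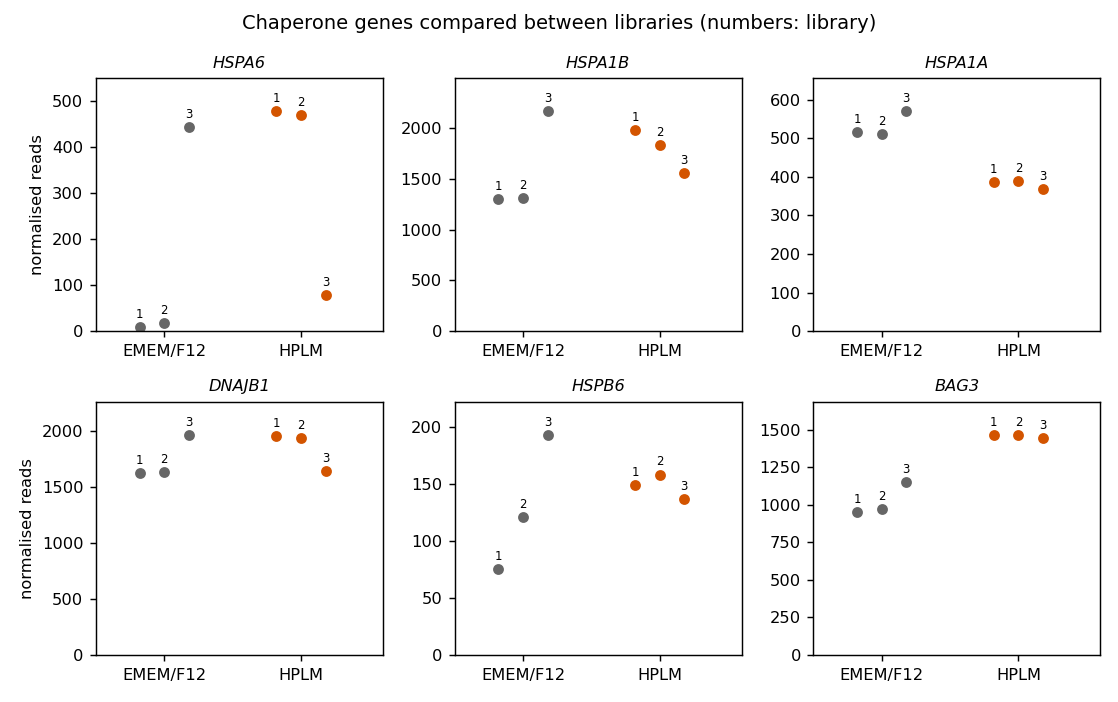
Normalised reads (y axis, from 0) of 6 chaperone genes in each library, 1 point per library with its number, grey for EMEM/F12 and orange for HPLM. HSPA6, HSPA1B, DNAJB1 and HSPB6 are higher in EMEM/F12 library 3 than in libraries 1 and 2 and overlap between media, while HSPA1A and BAG3 separate the media.

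All 3 HSP110 genes and both HSP90 genes fell, and no HPLM library reached the EMEM/F12 range for any of them. Over all genes 35.0% lay wholly below in HPLM. Of all genes with a mean of at least 1000 normalised reads, which all of these but HSPA4L reached, 40.5% fell. HSPH1 (HSP105), which recycles HSP70, was at 3457, 3458 and 3583 normalised reads in EMEM/F12 and at 2980, 3053 and 2925 in HPLM (-0.23 ± 0.02). HSPA4 fell from 4781, 4798 and 4875 to 3649.8, 3702 and 3909 (-0.36 ± 0.03) and HSPA4L from 313 ± 10.3 to 204 ± 25.3 (-0.62 ± 0.11). HSP90AB1, the constitutive cytosolic HSP90 and the most abundant member, lies on chromosome 6, 44246166 to 44253888. It fell from 45431, 46312 and 43832 normalised reads to 28463, 28536 and 28455 (-0.67 ± 0.02, adjusted p = 3.78e-81 in the authors' deposited table). HSP90AA1, the more inducible form (chromosome 14, 102080738 to 102139699), fell less, from 15106, 15391 and 16502 to 12549, 12595 and 11767 (-0.35 ± 0.05). Per kb of the principal transcript, HSP90AB1 exceeded HSP90AA1 by 3.80, 3.80 and 3.36 times in EMEM/F12 and by 2.87, 2.86 and 3.06 times in HPLM. The ratio was lower in every HPLM library than in every EMEM/F12 library. Both genes have copies elsewhere in the genome, with 18.8% and 21.4% of their 50-base windows shared.

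In mitochondria the chaperones split, with HSPD1 and HSPE1 lower and HSPA9 slightly higher. HSPD1 (HSP60, chromosome 2, 197486581 to 197516737), the ring of the folding chamber, fell from 12752, 12708 and 13288 normalised reads to 8238, 8235 and 8231 (-0.65 ± 0.02, adjusted p = 2.61e-66 in the authors' deposited table). HSPE1 (HSP10), its lid, fell from 1957, 1915 and 2147 to 1161, 1172 and 1110.4 (-0.81 ± 0.06). These genes run in opposite directions, and a RefSeq start of HSPD1 at 197500274 lies 105 bases from that of HSPE1 at 197500379. Other annotated genes share 52.9% of the 50-base windows of HSPE1 and a smaller share of those of HSPD1, pseudogenes among them. For HSPE1 the gene sharing most is HSPD1 itself, with 25.7% of the HSPE1 windows. Both values are therefore uncertain. Since reads of these libraries carry no strand, the falls of HSPD1 and HSPE1 may not be independent of each other. HSPA9 (mortalin, chromosome 5, 138553756 to 138575724) rose from 20346, 20259 and 20167 to 22147, 22276 and 22632 (0.14 ± 0.01, adjusted p = 4.97e-05 in the authors' deposited table). Its groups did not overlap, but the call was lost with spike-in scaling (0.08, adjusted p = 0.12 by DESeq2). HSPA9 per kb was 0.829, 0.828 and 0.788 times HSPD1 per kb in EMEM/F12 and 1.40, 1.40 and 1.43 times in HPLM. The ratio was thus higher in every HPLM library than in every EMEM/F12 library, on a scale that the library factors cancel from. Whether it lies above or below 1 depends on the transcript lengths used, 4727 bases for HSPA9 and 2455 for HSPD1. Before division by length HSPA9 had more normalised reads than HSPD1 in both media.

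**Figure D3:**
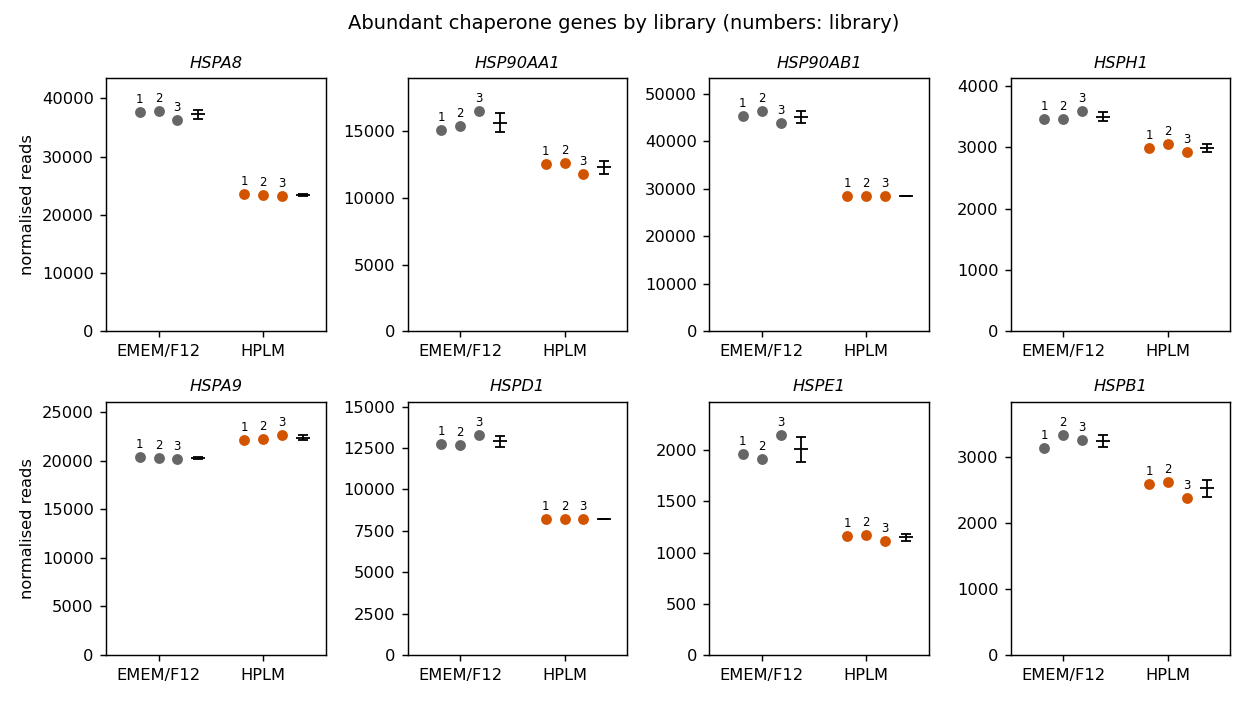
Normalised reads (y axis, from 0) of 8 abundant chaperone genes in each library, with the mean and SD over 3 libraries beside the points. Every gene shown separates the media, lower in HPLM for 7 of them and higher for HSPA9.

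The chaperonin CCT fell as a whole, with 8 of 8 subunit genes lower and no overlap between the media. Over all genes 35.0% lay wholly below in HPLM. All 8 subunit genes had a mean of at least 1000 normalised reads, a level at which 40.5% of all genes fell. CCT is a double ring in which each of the 8 subunits has its own place. CCT2 fell most, from 4132, 4151 and 4427 normalised reads to 3061, 3077 and 3032 (-0.47 ± 0.03), followed by CCT8 (5513 ± 80.4 to 4043 ± 81.4, -0.45 ± 0.02). CCT3 (-0.43 ± 0.02), CCT5 (-0.42 ± 0.02), CCT4 (-0.32 ± 0.04), CCT6A (-0.27 ± 0.03) and CCT7 (-0.18 ± 0.02) came between CCT8 and TCP1. TCP1, the alpha subunit, fell least, from 5588, 5377 and 5656 to 4934, 5119 and 4937 (-0.15 ± 0.03, adjusted p = 0.0012 in the authors' deposited table). The log2 ratios thus ran from -0.47 to -0.15, with errors of 0.02 to 0.04, and differences between subunits were not tested. Per kb of principal transcript the levels ran from 1237 normalised reads for CCT4 to 5496 for CCT3 in EMEM/F12, a range of 4.44 times. In HPLM they ran from 991 to 4067, a range of 4.10 times. The per-kb plot shows that CCT8 was above CCT6A, CCT5 and TCP1 in EMEM/F12 and close to CCT6A and TCP1 in HPLM (2017, 1971 and 1999 normalised reads per kb). Reads of CCT5 and TCP1 are less certain, since 49.8% and 22.1% of their 50-base windows occur in other annotated genes.

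**Figure D4:**
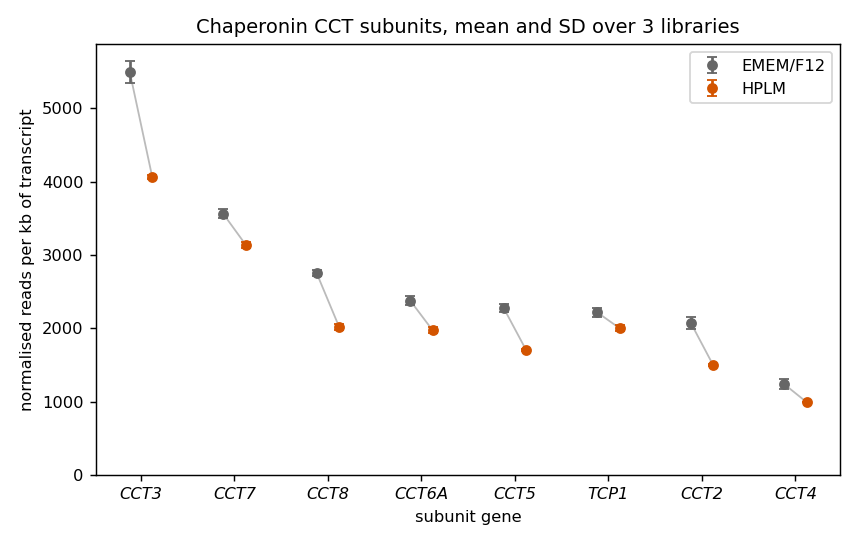
Normalised reads per kb of principal transcript (y axis, from 0) of the 8 CCT subunit genes, ordered by their level in EMEM/F12, as mean and SD over 3 libraries. Each orange HPLM point lies below its grey EMEM/F12 point, by the most for CCT3 in absolute terms.

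J-domain proteins choose the clients and places of HSP70, and their genes went both ways. In the DNAJA class, which resembles the bacterial DnaJ, DNAJA3 of mitochondria rose from 2456 ± 112 to 3018 ± 47.1 normalised reads (0.30 ± 0.04). DNAJA4 rose from 129.9, 134 and 177 to 185, 203 and 199 (0.42 ± 0.15), and that call was lost without EMEM/F12 library 1 or 2, without HPLM library 2 or 3 and with spike-in scaling. DNAJA1, a partner of HSPA8, fell from 5563, 5488 and 5831 to 5176, 5158 and 5202 (-0.12 ± 0.03), a call that edgeR did not make (adjusted p = 0.051). DNAJA2 did not pass (2159 ± 57.9 and 2106 ± 46.7). Of 8 DNAJB genes 3 rose and 2 fell. DNAJB2, a neuronal J-domain protein that binds ubiquitin, rose from 641, 638 and 724 to 1147, 1147 and 1156 (0.78 ± 0.06, adjusted p = 4.99e-24 in the authors' deposited table). DNAJB4 rose from 86.6, 84.8 and 129.6 to 174, 188 and 175 (0.83 ± 0.21), with EMEM/F12 library 3 again the highest of its medium. DNAJB12, anchored in the endoplasmic reticulum membrane, rose as well (0.30 ± 0.04). DNAJB5 fell from 1493, 1503 and 1330 to 1122, 1085 and 1007 (-0.43 ± 0.07).

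DNAJB8, a J-domain protein known from testis, was present at a very low level and was lower still in HPLM. It had 69 reads over the EMEM/F12 libraries and 7 over the HPLM libraries, a ratio of 11.5 (95% exact interval for counting error 5.29 to 29.6). In the authors' deposited table DNAJB8 had an adjusted p of 3.49e-06 (DESeq2). DNAJB6 and DNAJB14 did not pass, though all HPLM libraries lay below all EMEM/F12 libraries in both.

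The DNAJC class holds proteins that share the J domain and little else. Of its 23 genes 8 rose (34.8%) and 6 fell (26.1%), against 26.8% and 28.8% of all genes. DNAJC5, the cysteine string protein of synaptic vesicles, rose from 3521, 3418 and 3246 normalised reads to 4047, 4064 and 4148 (0.27 ± 0.04). DNAJC6 (auxilin), which with HSPA8 strips clathrin from vesicles, rose from 928, 934 and 847 to 1177, 1125 and 1204 (0.37 ± 0.05). DNAJC13 (RME-8), an endosomal J-domain protein, rose from 1289 ± 13.8 to 1615 ± 14.6 (0.33 ± 0.01). DNAJC16 rose most, from 247, 253 and 245 to 363, 356 and 375 (0.55 ± 0.03), followed by DNAJC1 of the endoplasmic reticulum (0.53 ± 0.03) and DNAJC14 (0.45 ± 0.04). DNAJC30 of mitochondria (0.36 ± 0.07) and DNAJC12, a co-chaperone of the aromatic amino acid hydroxylases (0.36 ± 0.05), also rose. DNAJC22 fell most, from 276, 267 and 271 to 122, 135 and 121 (-1.11 ± 0.06). DNAJC11, part of the mitochondrial contact site machinery, fell from 1551 ± 34.5 to 1176 ± 27.6 (-0.40 ± 0.03). The others that fell were DNAJC8 of splicing (-0.38 ± 0.07), the histone co-chaperone DNAJC9 (-0.25 ± 0.05), DNAJC2, which acts on nascent chains (-0.30 ± 0.04), and DNAJC21 of ribosome assembly (-0.28 ± 0.06). Another 9 did not pass, with log2 ratios from -0.30 ± 0.07 for DNAJC17 to 0.13 ± 0.10 for DNAJC24. DNAJC17 was called lower by edgeR (adjusted p = 0.019) and with spike-in scaling. Other annotated genes hold 54.4%, 42.0%, 33.7% and 31.4% of the 50-base windows of DNAJC14, DNAJC11, DNAJC9 and DNAJC17, and reads of these libraries carry no strand, so their values are uncertain.

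Small heat shock proteins hold unfolded clients without ATP, and most of their genes were scarce here. HSPB1 (HSP27), the abundant one, fell from 3138, 3334 and 3260 normalised reads to 2587, 2619 and 2376 (-0.36 ± 0.05). HSPB11, an intraflagellar transport protein despite its symbol, fell from 64.9, 70.9 and 94.4 to 39.0, 44.2 and 34.9 (-0.96 ± 0.20). HSPB8, which works with BAG3 in selective autophagy, rose from 35.0, 27.9 and 35.3 to 54.2, 60.7 and 53.6 (0.78 ± 0.12). Its groups did not overlap, but its call was lost without EMEM/F12 library 2 or HPLM library 2 (adjusted p of 0.080 and 0.082 by DESeq2). HSPB7 did not pass (39.5 ± 8.18 and 39.5 ± 10.5).

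BAG proteins, which release nucleotide and clients from HSP70, moved in both directions, with 2 of 6 higher and 3 lower. BAG5 (chromosome 14, 103556544 to 103562831), which carries several BAG domains, rose most of all members, from 1323, 1241 and 1276 normalised reads to 2413, 2385 and 2415 (0.91 ± 0.03, adjusted p = 1.91e-57 in the authors' deposited table). BAG3, an HSF1 target, rose from 951, 974 and 1154 to 1462, 1463 and 1444 (0.50 ± 0.09), and EMEM/F12 library 3 stood between the other EMEM/F12 libraries and HPLM. BAG2, an inhibitor of the ubiquitin ligase CHIP, fell from 188, 216 and 251 to 104, 119.6 and 108 (-0.98 ± 0.14), although 43.9% of its 50-base windows occur in other genes, mainly RAB23. BAG4 fell from 588 ± 12.1 to 479 ± 24.9 (-0.30 ± 0.05). BAG1 fell from 1856, 1847 and 1662 to 1598, 1592 and 1598 (-0.16 ± 0.05), a call lost without EMEM/F12 library 1 or 2 and without HPLM library 2 or 3. BAG6, which guards tail-anchored proteins, did not pass (8290.3 ± 564 and 8509.5 ± 93.1).

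The wider chaperone network was taken from 5 lists of co-chaperones and partners, 72 genes of which 71 were in the table. Of these 33 fell and 11 rose, or 46.5% and 15.5%, against 28.8% and 26.8% of all genes. A mean of at least 100 normalised reads was reached by 67 of the 71. Of the 11056 genes of the table at that level 3920 fell and 3577 rose, so the unmatched shares overstate the excess of falls. They likewise understate the shortfall of rises. Among 18 HSP90 co-chaperones 7 fell and 1 rose: the immunophilin FKBP5 fell from 3168, 3059 and 3070 normalised reads to 1671, 1665 and 1575 (-0.92 ± 0.03), and SUGT1 rose (0.21 ± 0.08). STIP1 (HOP), which links HSP70 to HSP90, did not pass (4812 ± 104 and 4698 ± 76.7). Of 9 HSP70 partners 3 rose, led by SGTB (0.81 ± 0.04), and 3 fell. None of 16 prefoldin and chaperonin partners rose and 7 fell, PDRG1 by the most (-0.62 ± 0.04).

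Mitochondrial chaperones and proteases split again, with 9 of 17 lower and 5 higher. TRAP1, the mitochondrial HSP90, fell from 6380, 6515 and 5728 normalised reads to 3107, 3008 and 3109 (-1.01 ± 0.06). GRPEL2, a nucleotide exchange factor of HSPA9, rose from 395, 422 and 435 to 704, 744 and 750.1 (0.81 ± 0.05), while its relative GRPEL1 did not pass. Of 11 other HSF1-linked genes 7 fell and 2 rose. RGS2, a regulator of G protein signalling, fell from 506 ± 11.0 to 123 ± 12.3 (-2.04 ± 0.09), and ZFAND2A (AIRAP), a stress-induced proteasome partner, rose from 203 ± 20.9 to 357 ± 10.8 (0.82 ± 0.09). SERPINH1, the collagen chaperone HSP47, was the other to rise, and EMEM/F12 library 3, at 4419, lay between libraries 1 and 2 (3607 and 3453) and the HPLM libraries (6004 to 6275).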

How the data were processed

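Poly(A) RNA was sequenced from TruSeq v2 libraries (labels' protocols), a kit whose reads carry no strand. The submitters' processing notes list GRCh38, Trimmomatic 0.36, STAR 2.5.2b, Subread 1.5.2 and DESeq2, without saying how each was used. Sources used here do not give the annotation or strand setting. The authors deposited log2 fold changes, p-values and adjusted p-values, per the file headers, and 6 library columns of signal, read counts that the authors divided by 1 factor per library. Whole reads were recovered for 100% of values within 0.01 reads, and DESeq2 1.42.0 run on them called the same 8905 genes as the authors, of 8905 in either. Of 16051 lines 46 are spike-ins. 15955 genes matched GENCODE release 29, used for coordinates, transcript lengths (longest APPRIS principal transcript) and 50-base windows shared between transcripts on either strand. RefSeq windows gave promoters.

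The 3 library columns under the 1 GEO sample of each medium carry the authors' test, called at an adjusted p under 0.05. Whether they are repeat libraries or separate cultures is not stated. SE was propagated from SDs. Members and lists were chosen with earlier results of these data known. Named without regard to change were HSF1, HSF2, HSPA8, HSPA1A, HSPA1B, HSPA9, HSPD1, HSPE1, HSPH1, HSP90AA1, HSP90AB1, DNAJA1, DNAJB1, HSPB1, BAG3 and TCP1. Added were, at a mean of at least 100, the 2 largest rises and falls per role and the largest per list, of which 1 is not reported here. Other members are named to describe their role. HSPA6, HSPB6 and the other genes high in EMEM/F12 library 3 were singled out after their values were seen. Alternatives were edgeR 4.0.16, filters, spike-in scaling, a library block and each library left out. Both tools were tested on simulated counts. Python 3.11.15, pandas 2.3.3, scipy 1.17.1 and matplotlib 3.10.9 were used. Intervals cover counting error only.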

Additional observations from a re-analysis of the deposited data

How the results depend on the processing

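The counts of members that rose and fell stayed within 1.5 times of 18 and 35 under all 14 alternatives tried, from 15 to 20 and from 32 to 37. They were 18 and 35 with edgeR, with or without a filter, 15 and 37 with spike-in scaling, 15 and 33 at an adjusted p under 0.01, and 20 and 35 without EMEM/F12 library 3. Of the 53 member calls, 46 held under every alternative that gave a value (14 higher, 32 lower), and none reversed. The 7 that did not hold throughout were HSF1, HSPA9, DNAJA1, DNAJA4, HSPB8, HSPA12A and BAG1. With the library number as a replicate block 15 members rose and 32 fell, and HSF1, DNAJA1, DNAJA4, HSPB8, HSPA12A and BAG1 were not called. Deviations of libraries with the same number from their medium means had r of -0.08, -0.15 and -0.24 over 10997 genes. Libraries with unlike numbers reached 0.23 (EMEM/F12 library 1 with HPLM library 3). Deviations from a mean of 3 constrain one another, so these values cannot tell whether the numbers mark pairs. DNAJB6 was called lower with spike-in scaling alone (-0.17). HSPA1L and DNAJC15, neither of them called, reached at most 38.4 normalised reads in any library, so only large changes were detectable there.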
